A study of Homo sapiens with 37 samples.

Results

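Human umbilical vein endothelial cells (HUVEC) that had received 4 Gy of ionising radiation were compared with unirradiated HUVEC. The libraries were chosen by their titles, 3 irradiated and 3 control, which makes 6 of the 37 libraries of the series. The series covers human endothelial cells and lung fibroblasts brought toward senescence by several routes, and in each cell type treated cells were set against their own controls. Total RNA was depleted of ribosomal RNA and sequenced, and reads were counted per gene.

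HUVEC are primary endothelial cells of the large vein of the umbilical cord, and the labels give no genetic change in either group. Both groups were grown in EBM medium with the EGM supplement kit and are labelled with population doubling level 3 to 5. The irradiated group carries the dose of 4 Gy, and the control group is labelled as control. The sources used here give neither the time between irradiation and harvest nor a test of cell division or senescence. The labels do not say that libraries of a group came from separate cultures, so the p-values measure the spread between these libraries, which may be technical. Human aortic endothelial cells (HAEC), with 3 irradiated (4 Gy) and 2 control libraries, serve as the comparison outside HUVEC.

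Ionising radiation breaks DNA. Double-strand breaks activate the kinase ATM and the transcription factor p53, which switches on the CDK inhibitor CDKN1A and holds back cell division. DNA that reaches the cytosol can start an interferon response, and damaged endothelium can activate NF-kB, show adhesion molecules such as ICAM1, VCAM1 and the selectins to leukocytes, and shift its surface from an anticlotting to a clotting state. Radiation injury of blood vessels in treated tissue is known for leukocyte adhesion, fibrosis and thrombosis.

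The irradiated libraries held 140357532 to 173510786 counts and the control libraries 162483370 to 181954494. Of the counts, 61.9% to 65.0% in irradiated and 63.5% to 66.9% in control libraries fell in protein-coding genes. The small RNAs 7SL, 7SK, RMRP and RPPH1, found by symbol, took 5.39% to 6.41% in irradiated and 4.92% to 5.75% in control libraries. A pair of identifiers without a symbol held 18.8% to 21.2% of the counts of each library and was in neither share. What RNA this pair holds was not determined, so the share of small RNAs may be larger. In both groups the endothelial markers were high, with a summed level of 12 markers of 2312 to 2362 CPM in irradiated and 2118 to 2257 CPM in control cells. PECAM1, also chosen as a marker, had no match by symbol, so it is in neither this sum nor the endothelial identity list below. Leukocyte markers summed to at most 0.682 CPM in irradiated and 0.534 CPM in control cells, with CD3E at 0 in all 6 libraries, and erythroid markers to at most 0.0581 CPM in irradiated and 0.0378 CPM in control cells, with HBB at 0. Fibroblast markers summed to 19.5 to 31.3 CPM in irradiated and 17.4 to 30.9 CPM in control cells, with DPT at 0. Among them FAP was higher, at 2.72 to 3.09 CPM in irradiated against 1.16 to 1.39 CPM in control cells. PRRX1 was lower, at 0.273 to 0.29 CPM in irradiated against 0.696 to 0.904 CPM in control cells. Epithelial markers summed to 41.9 to 45.7 CPM in irradiated and 35.6 to 37.4 CPM in control cells, nearly all from KRT19. Smooth muscle and pericyte markers summed to 782 to 836 CPM in irradiated and 528 to 554 CPM in control cells, nearly all from RGS5, and without RGS5 to 15 to 18 CPM in irradiated and 11.3 to 12.8 CPM in control cells. Their part in the results was not tested. All 6 of 6 libraries held transcripts that the cells of 1 donor are not expected to express together, so for genes that vary between people a changed mix of donors and a response to irradiation cannot be told apart.

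Of 27519 genes tested, 10652 (38.7%) passed an adjusted p of 0.05 in edgeR's quasi-likelihood test. Of all genes tested, 5132 (18.6%) were higher and 5520 (20.1%) lower in irradiated cells. Most changes were small. The median size of the log2 fold change among these genes was 0.37, and at least 2-fold changes were found for 593 genes that were higher (2.15% of those tested) and 360 that were lower (1.31%). Among 14682 protein-coding genes the shares were 25.2% higher and 30.7% lower, which is the better background for the lists of protein-coding genes that follow. The first principal component of log2 CPM held 85.1% of the variance and separated the groups. Levels are given in CPM (counts relative to library size, scaled by TMM), and the ± after a log2 fold change (irradiated over control, n = 3 each) is its standard error.

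**Figure D1:**
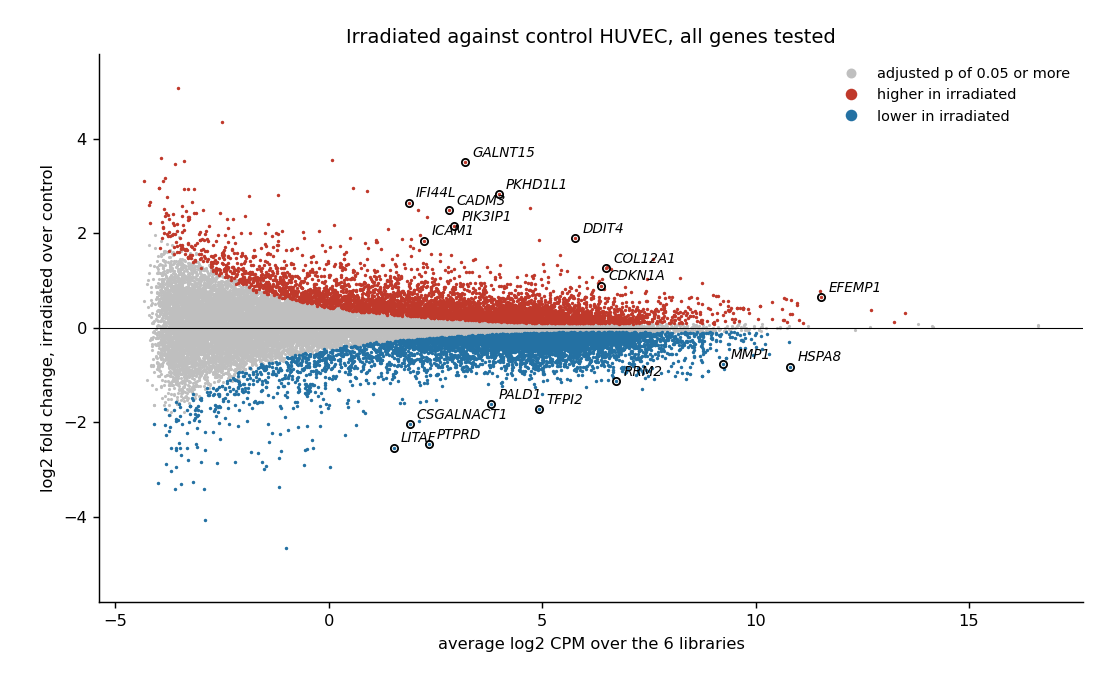
Log2 fold change, irradiated over control HUVEC, against the average log2 CPM of the 6 libraries. Each point is a gene tested, apart from a few that vary between people; red points were higher and blue points lower in irradiated cells at an adjusted p below 0.05. GALNT15 lies at 3.51 and LITAF at -2.54, while abundant genes such as EFEMP1 and HSPA8 moved by less than 1 on the log2 scale.

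The genes with the largest fold changes among genes with an average log2 CPM of at least 1 came from different pathways. GALNT15, an enzyme that starts mucin-type O-glycans on proteins, was measured at 17, 17.4 and 16.8 CPM in irradiated cells, against 1.66, 1.8 and 1.04 CPM in control cells. PKHD1L1, a giant membrane protein known from the hair cells of the mouse inner ear, was measured at 27.7, 27.6 and 28.1 CPM in irradiated cells, against 3.86, 4.16 and 3.65 CPM in control cells. In both genes every irradiated library lay above every control library, with log2 fold changes of 3.51 ± 0.11 (adjusted p = 2.3e-17) and 2.84 ± 0.06 (adjusted p = 1.5e-20). Genes whose groups did not overlap with the irradiated libraries on top made up 23.3% of all genes tested, and those with them at the bottom 24%.

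PTCHD4, a membrane protein of the patched family induced by p53, stood at 8.03, 8.09 and 8.87 CPM in irradiated cells, against 1.5, 1.6 and 1.82 CPM in control cells. PIK3IP1, which inhibits PI3 kinase, was at 12.4, 12.7 and 12.5 CPM in irradiated cells, against 3.03, 3.08 and 2.36 CPM in control cells. Both groups of each gene were apart, and the log2 fold changes were 2.34 ± 0.10 and 2.15 ± 0.09. DDIT4, an inhibitor of the growth kinase mTORC1, had 85.4, 84 and 89.9 CPM in irradiated cells, against 22.5, 25 and 22.2 CPM in control cells, a log2 fold change of 1.90 ± 0.04 (adjusted p = 6.8e-20). Of its exon length, 41.2% overlaps a gene on the opposite strand, and the sources used here do not say whether counting used strand. CADM3, a cell adhesion protein of the immunoglobulin family, and CADM3-AS1 on the opposite strand had log2 fold changes of 2.49 ± 0.08 and 2.49 ± 0.10. They overlap over 36.6% of the exon length of CADM3 and 27% of that of CADM3-AS1, and reads from the shared stretch may be counted for either. SLCO2A1, a prostaglandin transporter, and ABCB1, the drug efflux pump P-glycoprotein, rose with log2 fold changes of 2.09 ± 0.15 and 1.87 ± 0.11.

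At the lower end stood LITAF, a membrane protein of late endosomes and lysosomes, with 0.894, 0.863 and 0.733 CPM in irradiated cells, against 4.77, 4.9 and 4.84 CPM in control cells. PTPRD, a receptor tyrosine phosphatase, had 1.81, 1.52 and 1.32 CPM in irradiated cells, against 8.53, 8.86 and 8.32 CPM in control cells. The 3 irradiated libraries were all below the 3 control libraries in both genes, and the log2 fold changes were -2.54 ± 0.12 (adjusted p = 1.2e-14) and -2.46 ± 0.10 (adjusted p = 1.7e-15). TFPI2, a Kunitz-type inhibitor of serine proteases in the matrix, fell to 14.1 ± 0.562 CPM in irradiated cells, against 46.7 ± 1.5 CPM in control cells (SD, n = 3 each), a log2 fold change of -1.73 ± 0.04. PALD1, known in mice to modulate VEGF receptor signalling in endothelium, had 6.89 ± 0.0771 CPM in irradiated cells, against 21 ± 0.946 CPM in control cells, a log2 fold change of -1.61 ± 0.06. CPE, a carboxypeptidase that trims prohormones, and MFSD2A, the lipid transporter of brain endothelium, had log2 fold changes of -1.97 ± 0.10 and -1.59 ± 0.10. The nuclear receptor NR5A2, the lipid droplet protein CIDEA, the actin-binding PPP1R9A, the synuclein partner SNCAIP and TUB also fell, with log2 fold changes of -1.54, -1.52, -1.59, -1.57 and -1.54.

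**Figure D2:**
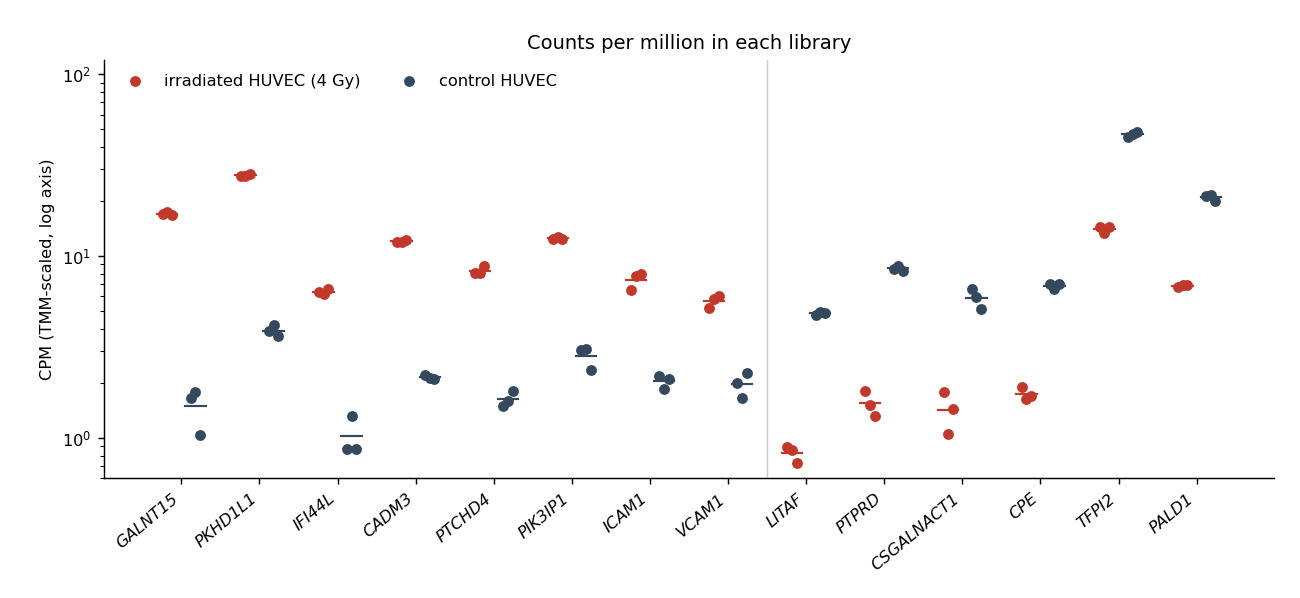
CPM (log axis) of 14 genes in each of the 3 irradiated (red, left) and 3 control (dark, right) HUVEC libraries; short bars are group means. The grey line divides genes that were higher from genes that were lower in irradiated cells, and in none of the 14 do the groups overlap.

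By absolute amount the picture was led by other genes. Among called genes with a symbol, the largest gains in mean CPM were those of the noncoding 7SK and RMRP, the small nucleolar RNA SNORD3A, the matrix protein EFEMP1, the elongation factor EEF1A1 and the nuclear MALAT1. EFEMP1 was at 3648 ± 19.2 CPM in irradiated cells, against 2320.5 ± 59.4 CPM in control cells, and MALAT1 at 2186 ± 68.3 CPM in irradiated cells, against 1457 ± 37.9 CPM in control cells (SD, n = 3 each). The part of library composition in the noncoding gains was not tested. Among the same genes the largest losses were those of the chaperone HSPA8, with 1296 ± 24 CPM in irradiated cells, against 2297 ± 128 CPM in control cells, the alpha-tubulin TUBA1B and its overlapping antisense gene, the glycolytic enzyme ENO1, the beta-tubulin TUBB6 (20.3% of its exon length overlaps an antisense gene) and the collagenase MMP1. MMP1 was at 458, 427 and 456 CPM in irradiated cells, against 731, 769.9 and 786 CPM in control cells, a log2 fold change of -0.77 ± 0.04 (adjusted p = 6.7e-14).

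The p53 targets listed here under arrest and feedback all rose. Of 20 listed genes tested, 20 were higher and 0 lower, with a median log2 fold change of 0.83 against 0.01 over all genes tested. The list is not limited to arrest, since CYFIP2, TP53INP1 and TP53I3 in it are also known for roles in cell death. CDKN1A, the p21 inhibitor of cyclin-dependent kinases, was at 106, 115 and 104 CPM in irradiated cells, against 57.7, 58 and 59.7 CPM in control cells, and the groups were apart. Its log2 fold change was 0.89 ± 0.04 (adjusted p = 5.4e-15). MDM2, the ubiquitin ligase that limits p53, had 284, 282 and 291 CPM in irradiated cells, against 178, 184 and 193 CPM in control cells, a log2 fold change of 0.62 ± 0.04. The strongest members were SPATA18, which acts in the removal of damaged mitochondria, at 1.65 ± 0.10, CYFIP2 at 1.41 ± 0.09, the RNA-binding protein ZMAT3 at 1.29 ± 0.04 and TP53INP1 at 1.23 ± 0.04 on the log2 scale. GDF15, a secreted stress cytokine, had 56 ± 2.55 CPM in irradiated cells, against 32.9 ± 0.187 CPM in control cells, a log2 fold change of 0.77 ± 0.04. The smallest values were those of TP53I3, PLK3 and TIGAR, at 0.17 ± 0.04, 0.17 ± 0.06 and 0.18 ± 0.07 on the log2 scale. Leaving out 1 library at a time took the call from PLK3 in the 5 fits that kept control replicate 1 and from TIGAR without irradiated replicate 1 or 3 or control replicate 1 or 2, at log2 fold changes of 0.13 to 0.17. PLK3 also missed the threshold with library totals (0.18), without the filter (0.16) and with a replicate block (0.17). Another gene on the same strand overlaps 42.6% of the exon length of TIGAR.

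The p53 targets listed under death and survival were mixed, and the contrast with the arrest list depends on how genes were assigned to the lists. Of 14 tested, 8 were higher and 4 lower, with a median log2 fold change of 0.21. BBC3, the PUMA protein that promotes apoptosis, had 19, 18.8 and 17.8 CPM in irradiated cells, against 7.75, 7.81 and 7.29 CPM in control cells, and FAS, a death receptor, 6.01, 5.96 and 5.82 CPM in irradiated cells, against 2.97, 3.16 and 2.95 CPM in control cells. Both stood higher in every irradiated library, by 1.28 ± 0.06 and 0.97 ± 0.09 on the log2 scale. TNFRSF10A, a TRAIL receptor, fell, at -0.37 ± 0.04, and AEN, a nuclease, had a log2 fold change of -0.14 ± 0.04. Among 12 p53 targets in DNA repair, 7 were higher and 1 was lower. RRM2B, the p53-induced ribonucleotide reductase subunit, had a log2 fold change of 0.95 ± 0.04, and DDB2 and XPC of nucleotide excision repair 0.51 ± 0.04 and 0.46 ± 0.04, with an antisense gene over 23.8% of the exon length of XPC.

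Among CDK inhibitors, cyclins and related genes, 7 of 23 were higher and 15 lower. CDKN2A, the locus of p16 and ARF, was at 4.13, 3.9 and 4.73 CPM in irradiated cells, against 1.83, 1.53 and 1.78 CPM in control cells, a log2 fold change of 1.31 ± 0.11 (adjusted p = 1e-09). CDKN1C rose by 1.19 ± 0.16 and CDKN2B, the p15 inhibitor, by 0.45 ± 0.08 on the log2 scale. The cyclins of entry into S phase and their E2F factors fell: CCNE2 at -1.07 ± 0.05, CCNE1 at -0.80 ± 0.06, E2F1 at -0.82 ± 0.05, E2F2 at -0.85 ± 0.10 and E2F8 at -0.95 ± 0.06 on the log2 scale. An antisense gene overlaps 37% of the exon length of CCNE2. Cyclin CCND1 was lower, at -0.45 ± 0.04 and CCND3 higher by 0.49 ± 0.04 on the log2 scale. The retinoblastoma relatives moved apart, with RBL1 at -0.88 ± 0.04 and RBL2 at 0.48 ± 0.04 on the log2 scale.

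Every tested gene of DNA replication and of mitosis was lower in irradiated cells. All 35 replication genes passed the test in that direction, with a median log2 fold change of -0.69, and all 38 mitosis genes, with a median of -0.69. FEN1, the flap endonuclease of lagging strand synthesis, had 38.8, 39 and 37.1 CPM in irradiated cells, against 87.8, 91.2 and 96.4 CPM in control cells. CDC6, which loads the replicative helicase, had 27.5, 27.1 and 26.3 CPM in irradiated cells, against 57.7, 60.7 and 61.9 CPM in control cells. The irradiated libraries all lay below the control ones, with log2 fold changes of -1.26 ± 0.04 (adjusted p = 2.3e-17) and -1.16 ± 0.04 (adjusted p = 8.1e-17). The helicase subunits MCM2 to MCM7 had log2 fold changes of -0.79 to -0.62, and RRM2, the S-phase subunit of ribonucleotide reductase, -1.13 ± 0.04, with another gene over 20.2% of its exon length. In bulk RNA, fewer dividing cells and less of these RNAs per cell cannot be told apart.

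Of the mitosis genes, CDK1, the kinase that drives entry into mitosis, was at 67.8, 64.5 and 64 CPM in irradiated cells, against 111, 120.2 and 131 CPM in control cells. MKI67, the marker of dividing cells, was at 98.8, 90.8 and 90.0 CPM in irradiated cells, against 138, 133 and 139 CPM in control cells. Their log2 fold changes were -0.88 ± 0.05 (adjusted p = 1e-13) and -0.55 ± 0.04 (adjusted p = 2.8e-11), and the groups did not overlap. The phosphatase CDC25A fell, at -1.26 ± 0.05, the spindle checkpoint genes MAD2L1 and BUB1B at -0.90 ± 0.05 and -0.83 ± 0.04, and AURKB at -0.89 ± 0.05 on the log2 scale. CDC25C, the phosphatase that activates CDK1, was among the least affected, at -0.28 ± 0.06 on the log2 scale.

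Homologous recombination and Fanconi anaemia genes followed the same direction, with 29 of 31 lower and 0 higher, at a median log2 fold change of -0.62. XRCC2 and EXO1 had log2 fold changes of -1.14 ± 0.06 and -1.08 ± 0.06, BRCA1 of -0.77 ± 0.04 and BRCA2 of -0.73 ± 0.04. FANCF did not pass, at 0.07 ± 0.06 on the log2 scale. Of 23 genes of end joining and damage signalling, 15 were lower and 2 higher. The 2 that were higher were ATM, the kinase that senses double-strand breaks, at 0.18 ± 0.04, and TP53BP1 at 0.14 ± 0.04 on the log2 scale, of whose exon length 28.7% overlaps an antisense gene. The histone H2AX was lower, at -0.74 ± 0.04, the checkpoint kinase CHEK1 at -0.53 ± 0.04 and the polymerase POLQ at -0.96 ± 0.04 on the log2 scale.

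Of 29 genes of the nuclear lamina and chromatin, 25 were lower and 0 higher. LMNB1, the lamin B whose loss is used as a mark of senescence, was at 131, 126 and 128 CPM in irradiated cells, against 189.5, 198 and 197 CPM in control cells. It was lower in every irradiated library, with a log2 fold change of -0.61 ± 0.04 (adjusted p = 8.9e-13). LMNA, the A-type lamin gene that is active in most differentiated cells, did not pass, at -0.08 ± 0.04 on the log2 scale. It did pass without control replicate 3, at -0.11, without the filter, at -0.09, and in DESeq2, at -0.08. HMGB2, a chromatin protein also known to fall in senescence, was lower, at -0.36 ± 0.04, the condensin subunits SMC2 and SMC4 at -0.73 ± 0.04 and -0.59 ± 0.04, and the histone methyltransferase EZH2 at -0.36 ± 0.06 on the log2 scale.

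Promoters are shown for the lists of replication and mitosis, whose members moved together, 250 bases up to the annotated start of the gene, from RefSeq in build GRCh38.p14. The files were made on hg19 and were used here by gene symbol only. The promoters printed were picked by size of change from called members whose window held the marked motif. Members without a match were passed over. Capitals mark an E2F-like motif, TTTNGCGC on either strand, with matches that may overlap one another, in ORC6 of the origin recognition complex (chr16:46689409-46689658, plus strand), which had a log2 fold change of -1.09 ± 0.05, and in MCM6 of the helicase (chr2:135876444-135876693, minus strand), at -0.77 ± 0.04.
ORC6: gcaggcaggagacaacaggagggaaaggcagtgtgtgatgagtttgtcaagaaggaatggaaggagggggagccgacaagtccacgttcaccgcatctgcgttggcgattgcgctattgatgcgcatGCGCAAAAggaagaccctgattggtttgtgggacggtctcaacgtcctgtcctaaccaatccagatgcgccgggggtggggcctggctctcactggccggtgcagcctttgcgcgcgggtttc
MCM6: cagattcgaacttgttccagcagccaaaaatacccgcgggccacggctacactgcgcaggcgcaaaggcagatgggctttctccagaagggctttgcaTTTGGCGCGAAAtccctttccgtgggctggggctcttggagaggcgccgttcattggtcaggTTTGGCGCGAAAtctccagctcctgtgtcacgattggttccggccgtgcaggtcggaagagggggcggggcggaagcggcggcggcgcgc
The motif is found in 8 of 32 replication promoters with a sequence (25%), against 2.24% of the 13207 promoters of genes tested and 1.54% of all 27305. In CDK1 (chr10:60778081-60778330, plus strand) and the checkpoint kinase BUB1B (chr15:40160819-40161068, plus strand) capitals mark TTTGAA on either strand, a short motif like the cell cycle homology region.
CDK1: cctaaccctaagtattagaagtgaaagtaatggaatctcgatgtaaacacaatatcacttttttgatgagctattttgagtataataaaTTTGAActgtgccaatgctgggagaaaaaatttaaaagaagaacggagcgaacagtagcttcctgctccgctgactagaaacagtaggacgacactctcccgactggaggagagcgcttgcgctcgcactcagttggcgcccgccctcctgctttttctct
BUB1B: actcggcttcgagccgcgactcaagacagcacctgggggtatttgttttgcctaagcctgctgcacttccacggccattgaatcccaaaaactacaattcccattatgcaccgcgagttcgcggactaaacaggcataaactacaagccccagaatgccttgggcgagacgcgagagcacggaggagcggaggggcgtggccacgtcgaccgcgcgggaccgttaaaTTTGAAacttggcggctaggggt
It is found in 15 of 31 mitosis promoters (48.4%), against 9.41% of those of genes tested and 13.6% of all. A match is a description of letters in this window, not a site that was shown to be bound or a cause of the change.

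**Figure D3:**
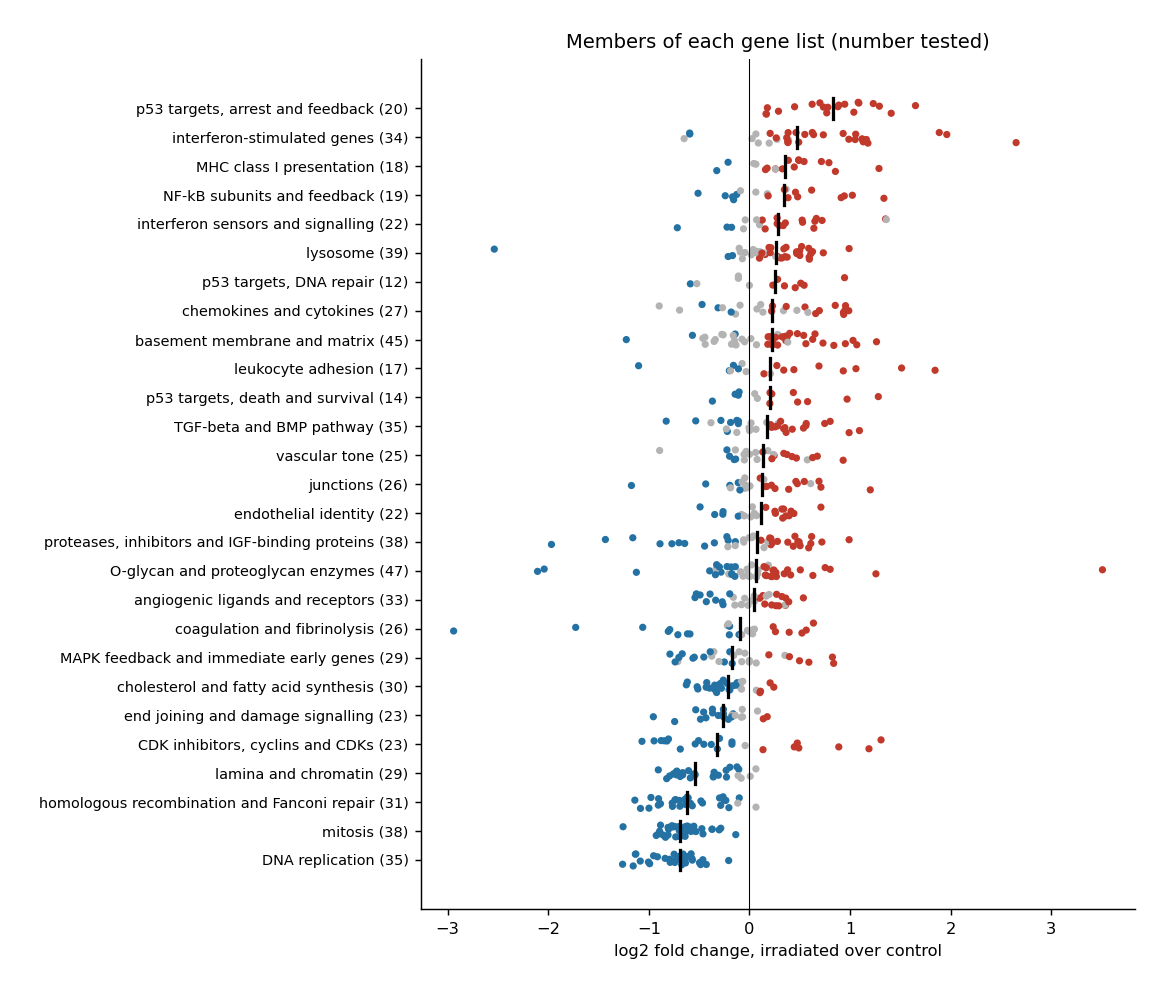
Log2 fold change, irradiated over control HUVEC, of the tested members of 27 gene lists, ordered by their median (black bar). Red members were higher, blue members lower and grey members did not pass an adjusted p of 0.05; the p53 arrest list lies wholly above 0 and the replication and mitosis lists wholly below.

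Most interferon-stimulated genes were higher in irradiated HUVEC. Of 34 tested, 24 were higher and 2 lower, with a median log2 fold change of 0.48, and 10 of them rose at least 2-fold. IFI44L had 6.32, 6.18 and 6.63 CPM in irradiated cells, against 0.869, 1.32 and 0.872 CPM in control cells. MX1, a GTPase that blocks viruses, had 7.53, 6.83 and 6.8 CPM in irradiated cells, against 1.9, 2.36 and 1.19 CPM in control cells. OAS2, which makes the activator of RNase L, had 6.15, 5.95 and 5.9 CPM in irradiated cells, against 1.7, 1.76 and 1.4 CPM in control cells. In all 3 genes the groups were apart, with log2 fold changes of 2.65 ± 0.13 (adjusted p = 2.5e-14), 1.96 ± 0.14 (adjusted p = 4.9e-11) and 1.89 ± 0.10 (adjusted p = 2.6e-13).

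Other members rose less or not at all. OAS1, IFIT2, IFI27 and IFIT1 had log2 fold changes of 1.18 ± 0.06, 1.16 ± 0.22, 1.13 ± 0.04 and 1.12 ± 0.26, and ISG15, the ubiquitin-like modifier, 0.49 ± 0.06. RSAD2, the antiviral enzyme viperin, did not pass, at 0.39 ± 0.52 on the log2 scale. The 2 lower genes were USP18, which removes ISG15 from proteins and dampens interferon signalling, at -0.59 ± 0.04, and the exonuclease ISG20, at -0.59 ± 0.11 on the log2 scale. The IFIT, IFITM and OAS families hold similar copies, so their counts may be split between genes and are uncertain.

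Among 22 sensors and signalling genes of the interferon pathway, 14 were higher and 3 lower. IFIH1, the MDA5 sensor of double-stranded RNA, was at 4.72, 5.06 and 5.02 CPM in irradiated cells, against 1.88, 1.91 and 2.0 CPM in control cells, a log2 fold change of 1.35 ± 0.10 (adjusted p = 4.5e-11). STING1, the adaptor of cytosolic DNA sensing, was at 14.1, 15 and 14.5 CPM in irradiated cells, against 9.44, 9.07 and 9.0 CPM in control cells, a log2 fold change of 0.67 ± 0.06. CGAS, the DNA sensor upstream of STING1, moved the other way, with 7.76, 8.07 and 7.76 CPM in irradiated cells, against 12.7, 12.6 and 13.5 CPM in control cells. Its groups did not overlap, and its log2 fold change was -0.72 ± 0.06 (adjusted p = 8.7e-10). The transcription factors IRF9, STAT2 and IRF7 rose by 0.72 ± 0.07, 0.53 ± 0.04 and 0.64 ± 0.10, and IRF3 was lower, at -0.22 ± 0.04 on the log2 scale. Of the exon length of IRF9, 48.4% overlaps another gene on the same strand.

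MHC class I presentation genes were higher in 13 of 18 cases and lower in 2. HLA-B had 65.2 ± 0.423 CPM in irradiated cells, against 36 ± 1.55 CPM in control cells (SD, n = 3 each) and HLA-C 152 ± 2.75 CPM in irradiated cells, against 92.8 ± 2.35 CPM in control cells. Their log2 fold changes were 0.86 ± 0.04 and 0.72 ± 0.04, where reads may be shared among HLA genes. HLA genes also vary between people, so a changed mix of donors and a response to irradiation cannot be told apart for them. PSMB9, a subunit of the immunoproteasome, rose by 1.29 ± 0.16 and TAP1, a subunit of the peptide transporter, by 0.79 ± 0.04, while its partner TAP2 was lower, at -0.32 ± 0.04 on the log2 scale, with another gene over 32.3% of its exon length.

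Interferon-stimulated genes carry a known response element, and the promoters of IFI44L (chr1:78620198-78620447, plus strand) and IFI27 (chr14:94110486-94110735, plus strand) are printed. They were picked by size of change from called members of the list whose window held the core of this element. The same chromosome was left out as for the replication and mitosis promoters. Members without a match were passed over. Capitals mark matches to the core, GAAA and GAAA with 2 bases between them, on either strand, where matches may overlap.
IFI44L: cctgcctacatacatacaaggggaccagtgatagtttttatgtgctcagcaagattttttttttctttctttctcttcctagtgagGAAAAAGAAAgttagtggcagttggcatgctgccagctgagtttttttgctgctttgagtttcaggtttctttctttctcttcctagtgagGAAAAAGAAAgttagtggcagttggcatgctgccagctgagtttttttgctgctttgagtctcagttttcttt
IFI27: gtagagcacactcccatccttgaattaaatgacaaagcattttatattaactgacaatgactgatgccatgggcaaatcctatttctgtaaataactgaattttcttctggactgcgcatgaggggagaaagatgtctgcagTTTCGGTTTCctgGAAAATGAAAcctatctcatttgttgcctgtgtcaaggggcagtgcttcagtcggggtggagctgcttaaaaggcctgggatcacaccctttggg
The core is found in 18 of 29 promoters of the list (62.1%), against 2.52% of the promoters of genes tested and 3.07% of all.

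Adhesion molecules of activated endothelium rose. ICAM1, the ligand of leukocyte integrins, was at 6.55, 7.74 and 7.95 CPM in irradiated cells, against 2.18, 1.87 and 2.12 CPM in control cells. VCAM1, which holds monocytes and lymphocytes, was at 5.21, 5.78 and 6.02 CPM in irradiated cells, against 2.01, 1.66 and 2.27 CPM in control cells. SELP, the P-selectin stored in Weibel-Palade bodies, was at 4.2, 4.07 and 4.23 CPM in irradiated cells, against 1.97, 2.11 and 1.91 CPM in control cells. Every irradiated library was above every control library in these genes, with log2 fold changes of 1.85 ± 0.10 (adjusted p = 1.8e-13), 1.51 ± 0.11 (adjusted p = 4.3e-11) and 1.06 ± 0.10 (adjusted p = 6.7e-09). An antisense gene overlaps 22% of the exon length of ICAM1. SELE, the E-selectin of inflamed vessels, had 1.03, 0.937 and 1.13 CPM in irradiated cells, against 0.615, 0.357 and 0.639 CPM in control cells, a log2 fold change of 0.93 ± 0.22 (adjusted p = 0.00107).

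Over the list, 9 of 17 adhesion genes were higher and 4 lower, with a median log2 fold change of 0.21. F11R, a junctional adhesion molecule, had a log2 fold change of 0.69 ± 0.04, and CD34 of 0.44 ± 0.07. Another gene on the same strand overlaps 36.6% of the exon length of F11R. PODXL, a sialomucin of the luminal surface, was at 61.5, 58 and 59.3 CPM in irradiated cells, against 127, 130.3 and 127 CPM in control cells, lower in every irradiated library, at -1.10 ± 0.04 on the log2 scale (adjusted p = 4.4e-17). ICAM2, the constitutive relative of ICAM1, was lower, at -0.20 ± 0.04 on the log2 scale, with an antisense gene over 26.8% of its exon length.

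Of 19 NF-kB subunits and feedback genes, 10 were higher and 5 lower. RELB, a subunit of the alternative NF-kB pathway, was at 4.13, 3.89 and 4.18 CPM in irradiated cells, against 2.04, 2.11 and 1.84 CPM in control cells. BIRC3, an inhibitor of apoptosis and an NF-kB target, was at 2.13, 1.65 and 1.92 CPM in irradiated cells, against 0.788, 0.624 and 0.838 CPM in control cells. Their groups did not overlap, and they rose by 1.02 ± 0.11 (adjusted p = 1.8e-08) and 1.34 ± 0.16 on the log2 scale (adjusted p = 2.6e-07). NFKB2, the partner of RELB, rose by 0.48 ± 0.10, whereas NFKB1, of the canonical pathway, was lower, at -0.17 ± 0.04 and RELA did not pass, at 0.06 ± 0.06 on the log2 scale. The inhibitor NFKBIA rose by 0.46 ± 0.04, TNFAIP2 by 0.94 ± 0.06, and TNFAIP3 did not pass, at 0.18 ± 0.13 on the log2 scale.

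Chemokines and cytokines were mixed, with 12 of 27 higher, 3 lower and a median log2 fold change of 0.23. CXCL8, the neutrophil chemokine, was at 29.6, 28.6 and 29.5 CPM in irradiated cells, against 37.5, 38.7 and 45.2 CPM in control cells. It was lower in every irradiated library, with a log2 fold change of -0.47 ± 0.05 (adjusted p = 6.9e-08). IL6 was at 5.85, 6.2 and 6.19 CPM in irradiated cells, against 5.29, 4.69 and 5.56 CPM in control cells, a log2 fold change of 0.23 ± 0.08 (adjusted p = 0.0321), whose call was lost without irradiated replicate 2 or 3 or control replicate 1 or 2, at 0.16 to 0.24, and with a replicate block, at 0.23. An antisense gene overlaps 20.7% of its exon length. IL1B, at 0.0797, 0.0539 and 0.029 CPM in irradiated cells, against 0.0755, 0.115 and 0.0798 CPM in control cells, did not pass, at -0.69 ± 0.60 on the log2 scale, and its groups overlapped. Those that rose most were CSF1, the macrophage growth factor, at 0.99 ± 0.10, IL15 at 0.96 ± 0.11, IL32 at 0.95 ± 0.08 and CXCL6 at 0.93 ± 0.12; CCL2, the monocyte chemokine, rose by 0.70 ± 0.09 on the log2 scale. The interferon-induced chemokine CXCL10 was below the filter on low counts, with 10 counts in the irradiated and 2 in the control libraries together.

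**Figure D4:**
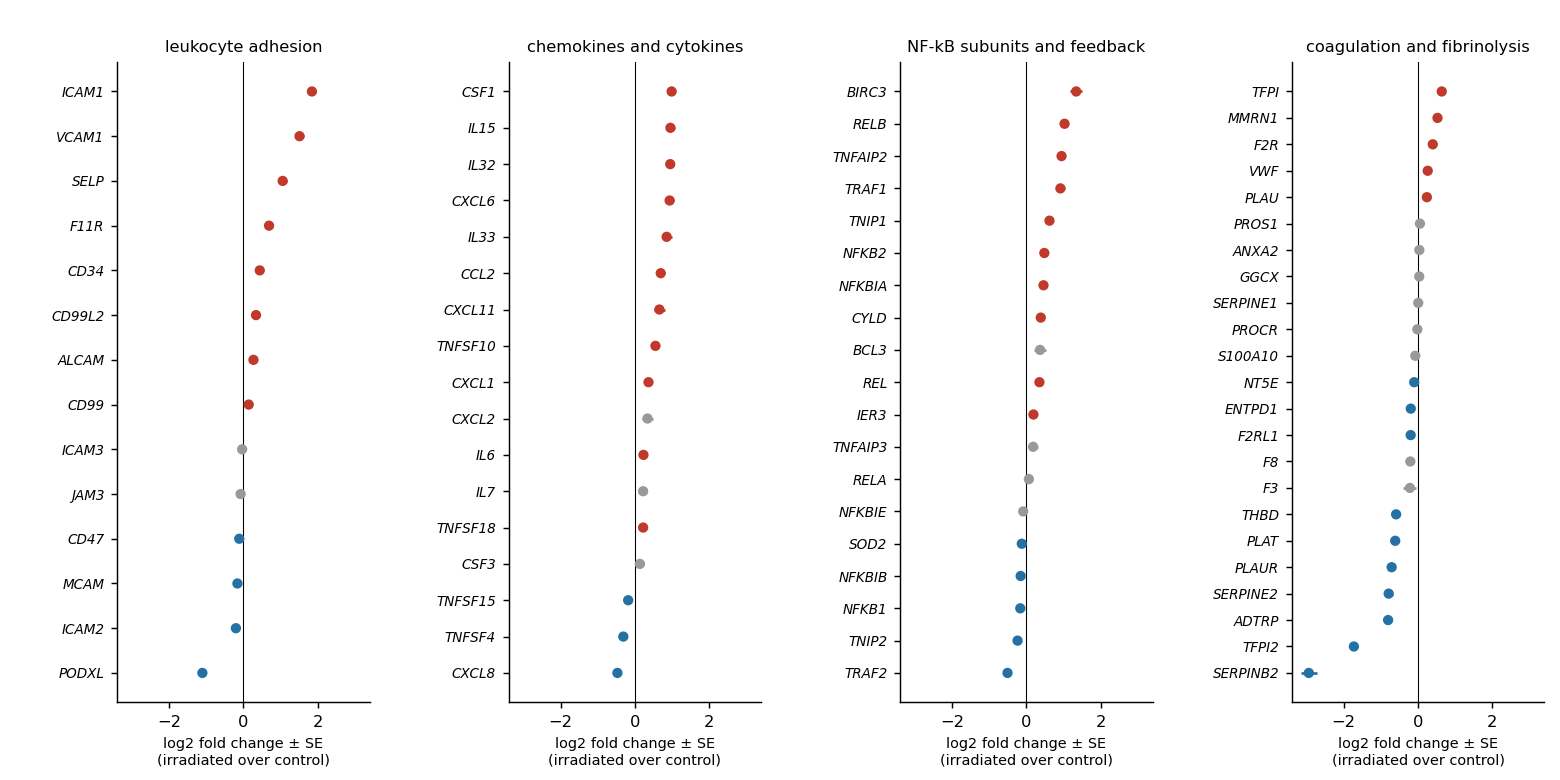
Log2 fold change (irradiated over control HUVEC) with its standard error for the members of 4 gene lists with an average log2 CPM of at least 0. Red genes were higher and blue genes lower in irradiated cells and grey genes did not pass an adjusted p of 0.05; ICAM1, VCAM1 and SELP lead the adhesion genes, and TFPI2 and SERPINB2 lie lowest among coagulation genes.

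The promoters of ICAM1 (chr19:10270870-10271119, plus strand) and VCAM1 (chr1:100719492-100719741, plus strand) are shown with kB-like motifs, GGNNNTTCC on either strand, in capitals. They were picked in the same way, from called adhesion genes with a match.
ICAM1: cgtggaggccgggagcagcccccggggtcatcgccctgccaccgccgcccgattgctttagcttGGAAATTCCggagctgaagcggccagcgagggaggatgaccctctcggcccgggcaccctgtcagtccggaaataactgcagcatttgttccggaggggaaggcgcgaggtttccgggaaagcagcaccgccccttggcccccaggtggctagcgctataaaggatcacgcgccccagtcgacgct
VCAM1: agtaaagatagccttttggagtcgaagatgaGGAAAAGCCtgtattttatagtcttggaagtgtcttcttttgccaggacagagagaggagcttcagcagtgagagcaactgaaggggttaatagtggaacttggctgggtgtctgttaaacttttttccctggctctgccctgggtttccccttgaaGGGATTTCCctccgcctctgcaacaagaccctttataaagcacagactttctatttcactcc
The motif is short: it is found in 4 of 12 adhesion promoters (33.3%), against 19.5% of the promoters of genes tested and 17.1% of all, and in 12 of 32 replication promoters (37.5%).

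Genes of endothelial identity moved in both directions. Of 22 tested, 11 were higher and 5 lower, with a median log2 fold change of 0.12. CDH5, the VE-cadherin of endothelial junctions, was at 439.5, 456 and 446 CPM in irradiated cells, against 416, 381 and 402 CPM in control cells, and CLDN5, the claudin that seals them, at 129, 136 and 138 CPM in irradiated cells, against 81.7, 88.4 and 76.4 CPM in control cells. In both genes the irradiated libraries were above the control libraries, with log2 fold changes of 0.16 ± 0.04 and 0.71 ± 0.04. VWF, the von Willebrand factor, rose by 0.26 ± 0.05 and the transcription factor GATA2 by 0.39 ± 0.05 on the log2 scale. The VEGF receptors moved the other way, with FLT1 at 113 ± 1.5 CPM in irradiated cells, against 159 ± 3.6 CPM in control cells (SD, n = 3 each), a log2 fold change of -0.49 ± 0.04, and KDR at -0.26 ± 0.04.

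Of 17 genes of arterial and venous identity, 7 were higher and 5 lower. The arterial connexin GJA4 was at 1.59, 1.5 and 1.87 CPM in irradiated cells, against 3.95, 3.5 and 3.7 CPM in control cells, lower in every irradiated library, at -1.17 ± 0.12 on the log2 scale (adjusted p = 9.5e-09). The Notch ligands JAG1 and DLL4 were lower, at -0.54 ± 0.04 and -0.34 ± 0.07, and CXCR4, the chemokine receptor of tip cells, at -0.80 ± 0.06 on the log2 scale. Venous EPHB4 and NR2F2 were higher, by 0.29 ± 0.04 and 0.22 ± 0.04, and FLRT2 by 0.86 ± 0.04 on the log2 scale. The Notch receptor NOTCH4 moved opposite to the Notch ligands, higher by 0.23 ± 0.05 on the log2 scale. The highest value of the list was 2.31.

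Of 26 genes of coagulation and fibrinolysis, 11 were lower and 6 higher, beside 30.7% lower and 25.2% higher of all protein-coding genes. THBD, thrombomodulin, which turns thrombin into an anticoagulant, was lower, at -0.59 ± 0.08, and PLAT, the tissue plasminogen activator, at -0.62 ± 0.04 on the log2 scale. TFPI, the main inhibitor of tissue factor, was at 417, 434 and 421 CPM in irradiated cells, against 270.1, 273 and 275 CPM in control cells. It stood higher in every irradiated library, with a log2 fold change of 0.64 ± 0.04 (adjusted p = 3.2e-13), and tissue factor itself, F3, did not pass, at -0.22 ± 0.18, but was lower without irradiated replicate 3, at -0.50. SERPINB2, an inhibitor of plasminogen activators, was low in both groups, with 0.239, 0.256 and 0.189 CPM in irradiated cells, against 1.4, 1.89 and 2.01 CPM in control cells, and fell, at -2.94 ± 0.21 (adjusted p = 2.4e-11) on the log2 scale.

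Vascular tone genes were higher in 10 of 25 cases and lower in 4. NOS3, which makes nitric oxide, did not pass, with 30.7, 30.3 and 31.2 CPM in irradiated cells, against 31.8, 27.6 and 28.1 CPM in control cells, and its groups overlapped. Without control replicate 1 it passed as higher, at a log2 fold change of 0.14. PTGIS, the prostacyclin synthase, rose by 0.93 ± 0.17, the vasodilator peptide ADM by 0.68 ± 0.05 and its receptor CALCRL by 0.47 ± 0.04 on the log2 scale. KLF2, the flow-induced transcription factor, rose by 0.42 ± 0.08 and EDN1, the vasoconstrictor endothelin, by 0.25 ± 0.04 on the log2 scale.

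Among angiogenic ligands and receptors, 12 of 33 were higher and 9 lower. ESM1, a tip cell product, had 199 ± 3.41 CPM in irradiated cells, against 289 ± 16.3 CPM in control cells (SD, n = 3 each), a log2 fold change of -0.54 ± 0.04. FLT4 fell, at -0.53 ± 0.06, PDGFA at -0.43 ± 0.04, and PDGFB, the ligand that recruits pericytes, rose by 0.39 ± 0.05 on the log2 scale. Of 26 junction genes, 12 were higher and 5 lower, with CLDN1 at 1.2 ± 0.31, OCLN at 0.48 ± 0.08 and JUP, plakoglobin, at 0.55 ± 0.08 on the log2 scale.

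Basement membrane and matrix genes rose more often, with 25 of 45 higher and 3 lower. COL12A1, a collagen that binds fibrils, was at 132, 124 and 128 CPM in irradiated cells, against 54, 51.4 and 54.4 CPM in control cells. COL4A5, a basement membrane chain, was at 96.5, 96.2 and 101 CPM in irradiated cells, against 47.5, 47.5 and 45 CPM in control cells. Both groups were apart in both genes, and they rose by 1.26 ± 0.04 (adjusted p = 1e-17) and 1.07 ± 0.04 on the log2 scale (adjusted p = 1e-16). COL8A1, a short-chain collagen of the vessel intima, rose by 0.95 ± 0.04 and FN1, fibronectin, by 0.48 ± 0.04 on the log2 scale. NID2, a linker of basement membranes, fell to 3.76 ± 0.312 CPM in irradiated cells, against 8.8 ± 0.656 CPM in control cells (SD, n = 3 each), and an antisense gene covers 30% of its exon length. The fibrillar chains COL1A1 and COL3A1, which are also fibroblast markers, did not pass, at -0.44 ± 0.25 and -0.35 ± 0.15 on the log2 scale. Both passed as lower when irradiated replicate 3 was left out, at -0.73 and -0.56, and when control replicate 3 was, at -0.67 and -0.55 on the log2 scale. COL3A1 also passed with library totals (-0.34) and without the filter (-0.36).

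Of 35 genes of the TGF-beta and BMP pathway, 16 were higher and 8 lower. TGFB2 was at 38.7, 37.3 and 35.8 CPM in irradiated cells, against 16.9, 17 and 18.5 CPM in control cells, a log2 fold change of 1.09 ± 0.05 (adjusted p = 2.8e-15), with another gene over 26.6% of its exon length. The latent binding proteins LTBP4 and LTBP2 rose by 0.99 ± 0.09 and 0.75 ± 0.04 on the log2 scale. BMP4 rose by 0.80 ± 0.04 and BMP2 fell, at -0.83 ± 0.06 on the log2 scale. Of 19 genes of endothelial-to-mesenchymal transition, 7 were higher, 2 lower and 10 not called, with a median log2 fold change of 0.13. Among those that were higher, the contractile genes ACTA2 and TAGLN were at 0.52 ± 0.14 and 0.43 ± 0.07 and VIM at 0.40 ± 0.03. The lowest value of the list was -0.44 on the log2 scale.

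The enzymes of O-glycans and proteoglycans, to which GALNT15 belongs, were higher in 19 of 47 cases and lower in 14. CSGALNACT1, which starts chondroitin sulfate, was at 1.79, 1.05 and 1.45 CPM in irradiated cells, against 6.62, 5.99 and 5.14 CPM in control cells, lower in every irradiated library, at -2.04 ± 0.14 on the log2 scale (adjusted p = 1.1e-11). XYLT1, which links such chains to their proteins, fell, at -2.11 ± 0.25 on the log2 scale from a low level. HAS2, which makes hyaluronan, rose by 1.26 ± 0.22 and SULF1, a heparan sulfatase, by 0.63 ± 0.04 on the log2 scale.

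Among 38 proteases, inhibitors and IGF-binding proteins, 17 were higher and 12 lower. CTSS, a cathepsin of antigen processing, rose by 0.99 ± 0.11 and TIMP2, a metalloprotease inhibitor, by 0.72 ± 0.05 on the log2 scale. ADAMTS18 and ADAMTS9, proteases of the matrix, fell, at -1.16 ± 0.06 and -0.89 ± 0.04 on the log2 scale.

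Lysosomal genes were higher in 25 of 39 cases and lower in 3, among them LITAF. GLB1, the beta-galactosidase whose activity is the usual stain for senescent cells, was at 64.1, 63.5 and 64 CPM in irradiated cells, against 46.3, 46.2 and 45.7 CPM in control cells. It was higher in every irradiated library, by 0.47 ± 0.04 on the log2 scale (adjusted p = 8.3e-11). CTSD, MAN2B1 and TPP1, all enzymes of the lumen, rose by 0.61 ± 0.04, 0.74 ± 0.05 and 0.63 ± 0.06, and the transcription factor TFEB by 0.59 ± 0.12 on the log2 scale. Of the exon length of CTSD, 41.7% overlaps another gene on the same strand.

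Genes of cholesterol and fatty acid synthesis fell, with 21 of 30 lower and 4 higher. HMGCS1, an early enzyme of the pathway, was at 82.4, 82.8 and 85.6 CPM in irradiated cells, against 119, 128 and 138 CPM in control cells, lower in every irradiated library, at -0.62 ± 0.04 on the log2 scale (adjusted p = 2e-11). SQLE, which makes squalene epoxide, fell, at -0.51 ± 0.04 on the log2 scale. SREBF2, a regulator of the pathway, was higher, by 0.21 ± 0.04 on the log2 scale.

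MAPK feedback and immediate early genes fell in 11 of 29 cases and rose in 6. HBEGF, DUSP5 and SPRY4 fell, at -0.79 ± 0.05, -0.70 ± 0.08 and -0.67 ± 0.06, and SPRY1 and JUNB rose by 0.84 ± 0.09 and 0.83 ± 0.07 on the log2 scale. Glycolysis and hypoxia genes were lower in 10 of 25 cases and higher in 4. HK2, hexokinase, fell, at -0.79 ± 0.05 and LDHA at -0.34 ± 0.04, and EPAS1, the hypoxia factor HIF2A of endothelium, rose to 113 ± 2.92 CPM in irradiated cells, against 55 ± 2.75 CPM in control cells, by 1.04 ± 0.04 on the log2 scale (adjusted p = 4.1e-16). Of 22 genes of the NRF2 and oxidative stress list, 10 were higher and 7 lower, with ferritin FTL at 0.65 ± 0.04 and GCLM at -0.48 ± 0.04 on the log2 scale. Of 22 genes of ATF4 and the unfolded protein response, 7 were higher and 6 lower, with CHAC1 at 0.74 ± 0.13 and PSAT1 at -0.45 ± 0.05 on the log2 scale.

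The HUVEC response was set beside that of HAEC given the same dose, in 1 fit of 11 libraries with a test of the difference for each gene. Of 30317 genes tested, 5446 (18%) differed, 2684 (8.85%) with the HUVEC log2 fold change above that of HAEC and 2762 (9.11%) below it. The cell types also differ in donors, labelled doubling level and medium, which cannot be told apart from vessel of origin.

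Genes of cell division fell less in HUVEC, by the test of the difference. Over mitosis genes the median log2 fold change was -0.68 in HUVEC and -1.40 in HAEC, and the difference passed with HUVEC above HAEC in 36 of 38 genes and below in 1. For DNA replication the medians were -0.69 in HUVEC and -1.09 in HAEC, with 32 of 35 differences above 0 and 0 below. For lamina and chromatin they were -0.54 in HUVEC and -0.95 in HAEC, with 26 of 29 above 0. The p53 arrest genes had a median of 0.84 in HUVEC and 0.86 in HAEC, with 5 of 20 differences above 0 and 6 below. Interferon-stimulated genes had a median of 0.50 in HUVEC and 1.10 in HAEC, with 16 of 35 differences below 0 and 4 above. NF-kB genes had 8 of 19 differences below 0 and 0 above, and TGF-beta and BMP genes 20 of 36 below and 7 above.

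**Figure D5:**
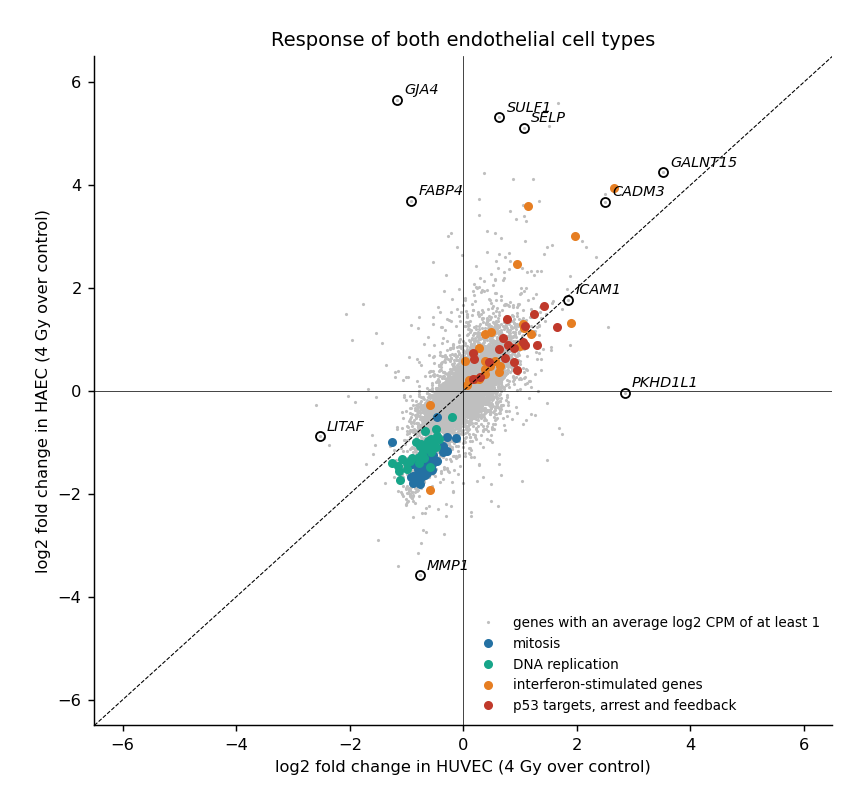
Log2 fold change in HUVEC (horizontal) and in HAEC (vertical), both 4 Gy over control, for genes with an average log2 CPM of at least 1; coloured points belong to 4 gene lists and the dashed line marks equal responses. Most mitosis genes (blue) lie below the line, and PKHD1L1 lies at 2.84 in HUVEC and -0.03 in HAEC.

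Of the 4 marker genes, ICAM1 did not differ between the cell types beyond its error, with a difference of 0.08 ± 0.13 (SE, adjusted p = 0.77). PKHD1L1 was the marker with the widest gap: its log2 fold change was 2.84 ± 0.08 in HUVEC and -0.03 ± 0.16 in HAEC, where its mean level was 0.74 CPM in irradiated and 0.75 CPM in control cells. GALNT15 rose by 3.52 ± 0.10 in HUVEC and 4.25 ± 0.13 in HAEC, and LITAF stood at -2.53 ± 0.14 in HUVEC and -0.88 ± 0.16 in HAEC on the log2 scale.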

How the data were processed

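The authors deposited whole-number read counts per gene for each library, not normalized. Per the submitters' processing notes, bcl2fastq, cutadapt, STAR 2.4, featureCounts and hg19 were used; the sources used here name no settings, annotation release or use of strand. Of 57773 gene identifiers, 52338 were given a symbol, from the table of gene names or GENCODE 29. A pair of identifiers without a symbol held 18.8% to 21.2% of the counts of each HUVEC library. Of 902 listed symbols in 39 lists, 9 did not match and are not analysed here.

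The 6 libraries were tested with edgeR 4.0.16 in R 4.3.3, with TMM scaling, filterByExpr, the quasi-likelihood test and a Benjamini-Hochberg adjusted p below 0.05. The difference from HAEC was an interaction term over 11 libraries. Standard errors come from the log2 fold change over the root of the F statistic. The scripts were tested on simulated data. Libraries held 140357532 to 181954494 counts, and the biological coefficient of variation was 6.94%. No pair of replicates agreed within counting noise (chi-square over degrees of freedom 12.1 to 33.8), so none was merged as a library deposited again; this does not show that they came from separate cultures.

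The genes, lists and comparisons were chosen with earlier results of these data known. The genes named are the 4 marker genes, the 12 called genes per direction with the largest fold change and an average log2 CPM of 1 or more, the 6 per direction with the largest change in CPM, up to 4 called members per list and direction, listed genes described for their role, a set of senescence and endothelial genes, and 5 per side for HAEC. The text leaves out some genes that this rule picks, and some items are not reported here. Lists were counted, not tested. Alternatives were DESeq2 size factors, library totals, library sizes from protein-coding genes, no filter, DESeq2 1.42.0, a test against a 1.2-fold change, a replicate block, fits with HAEC or all 37 libraries, and each library left out.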

Additional observations from a re-analysis of the deposited data

Results flagged for a closer look

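For the genes in this section the change with irradiation differed between HUVEC and HAEC in edgeR's interaction test at an adjusted p below 0.05. Values are differences of log2 fold changes, HUVEC minus HAEC, in 6 HUVEC and 5 HAEC libraries. Differences above 0 were found for PKHD1L1 (2.87), IL31RA, a cytokine receptor chain (2.84), WTAPP1 (2.82), MMP1, a collagenase (2.81), and DNAH8, a dynein of cilia (2.80). WTAPP1 and MMP1 overlap on opposite strands. MMP1 averaged 438 CPM in irradiated and 745 CPM in control HUVEC, and 432 CPM in irradiated and 5168 CPM in control HAEC.

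Differences below 0 were found for GJA4 (-6.83), SULF1 (-4.68), the fatty acid binding protein FABP4 (-4.62), SELP (-4.05), MGARP (-3.87), VCAM1 (-3.63), LITAF (-1.65), IFI44L (-1.29), CADM3 (-1.18) and GALNT15 (-0.73). GJA4 averaged 1.62 CPM in irradiated and 3.64 CPM in control HUVEC, and 6.59 CPM in irradiated and 0.13 CPM in control HAEC. SELP averaged 4.09 CPM in irradiated and 1.96 CPM in control HUVEC, and 15.2 CPM in irradiated and 0.43 CPM in control HAEC.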

How the results depend on the processing

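The labels do not state that the replicate numbers pair the libraries. Deviations of same-numbered libraries from their group means correlated at -0.06, -0.32 and -0.33. Irradiated replicate 2 with control replicate 3 correlated at 0.33, and irradiated replicate 3 with control replicate 2 at 0.27. With 3 libraries per group such deviations are tied to one another, so they cannot decide whether libraries were paired. A replicate block gave 4781 genes higher and 5194 lower, against 5132 and 5520 without it, and for the difference from HAEC 2130 above and 2062 below 0, against 2684 and 2762. Counts moved by more than 1.5 times in the test against a 1.2-fold change, with 2047 higher and 2209 lower, and in the fit of all 37 libraries, with 1443 higher and 1826 lower. Of the 216 genes recomputed, 22 no longer passed in the test against a 1.2-fold change and 52 in the fit of all 37 libraries. Leaving out 1 library gave 4435 to 4766 higher and 5055 to 5360 lower genes, and 1801 to 2564 differences above and 2428 to 3419 below 0. In the same fits some list counts moved by more than 1.5 times. Lower MHC class I genes numbered 1 to 2 (1 without control replicate 1 or 2 or irradiated replicate 1), lower p53 death genes 2 to 4 (2 without control replicate 2 or 3 or irradiated replicate 3) and lower p53 repair genes 1 to 2 (2 without control replicate 1 or irradiated replicate 2). Higher lamina genes numbered 0 to 1 (1 without control replicate 1), lower tone genes 2 to 3 (2 without control replicate 1 or irradiated replicate 3) and lower junction genes 2 to 4 (3 and 2 without irradiated replicates 1 and 3). Lower matrix genes numbered 3 to 8 (6 without control replicate 3, 8 without irradiated replicate 3) and higher cholesterol genes 2 to 4 (2 without control replicate 2 or irradiated replicate 1). Without irradiated replicate 1, lower TGF-beta genes fell to 5 (5 to 9 over the 6 fits) and lower endothelial-to-mesenchymal genes to 1 (1 to 3), and higher ATF4 genes numbered 4 to 8 (4 without control replicate 2 or irradiated replicate 1 or 3). The difference of ICAM1 from HAEC, 0.08, changed sign without control HAEC replicate 1 (-0.15) and without control HUVEC replicate 2 (-0.02), and lay between -0.15 and 0.18 over the fits without 1 library. The cause of these shifts was not tested. Low counts limit genes such as CXCL10.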

Other observations

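The families in this section were put together after their values were seen, so they are described by counts and medians of the log2 fold change, irradiated over control, with no test. They are read beside the 25.2% of protein-coding genes that were higher and the 30.7% that were lower. All 44 genes of ribosome biogenesis were lower in irradiated HUVEC, at a median of -0.59, with the nucleolar helicase DDX21 at -0.91 ± 0.04, the pseudouridine synthase DKC1 at -0.82 ± 0.04 and NOP56 at -0.74 ± 0.04. Of 79 cytosolic ribosomal proteins 8 were higher and 18 lower, with a median of -0.05. All 30 replication-dependent histones were lower, at a median of -0.82, and the near-identical histone copies may share reads. Of 17 tubulins, 12 were lower and 0 higher, at a median of -0.56, with TUBB6 at -0.86 ± 0.04 and TUBB4B at -0.82 ± 0.04. Of 40 genes taken by heat shock symbols, 23 were lower and 8 higher. They include the binding proteins HSPBP1 and HSPBAP1 and the readthrough genes HSPE1-MOB4 and HSPB2-C11orf52. The mitochondrial chaperones HSPD1 and HSPA9 were at -0.68 ± 0.04 and -0.70 ± 0.04 and HSP90AA1 at -0.74 ± 0.04.

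A set built around genes known to respond when growth factor signalling falls or FOXO factors are active was mostly higher. Of 27 tested, which include FOXO1, FOXO3 and FOXO4 themselves, 23 were higher and 2 lower, with a median of 0.86. Among them PDK4, which holds pyruvate back from the citric acid cycle, had 6.28, 6.47 and 7.41 CPM in irradiated cells, against 2.28, 2.92 and 2.63 CPM in control cells, a log2 fold change of 1.37 ± 0.10. BMF, a pro-apoptotic BCL2 relative, was at 1.47 ± 0.13, the glucocorticoid-induced TSC22D3 at 1.08 ± 0.05 and YPEL3 at 1.26 ± 0.12 on the log2 scale. The 2 lower genes were SESN3, at -0.55 ± 0.07, and PIK3R1, at -0.14 ± 0.05. INSR did not pass, at -0.13 ± 0.08 on the log2 scale. Of 39 genes of the ABC family, taken by symbol, 16 were higher and 11 lower. They include ABCE1, ABCF1, ABCF2 and ABCF3, which are not transporters. The cholesterol exporters ABCA1 and ABCG1 were at 1.23 ± 0.08 and 0.93 ± 0.07. Of 18 genes taken as complement genes, 11 were higher and 3 lower. The higher ones include C1QTNF1, at 0.97 ± 0.16, which is not a complement component. They also include C3 and CFD, with mean levels of only 0.10 and 0.29 CPM in irradiated cells.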
